A study of Homo sapiens with 2 samples.

Results

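The SCF and CRL4 cell cycle ubiquitin ligases are described here in Ca9-22, a cell line grown from a squamous carcinoma of the human gingiva. The set holds 10 genes (DTL, DDB1, CUL4A, CUL4B, RBX1, SKP1, SKP2, CKS1B, FBXW7 and FBXO5) of 19775 genes measured. Every probe set paired with a member's symbol and no other was taken, which gave 26 of 54675 probe sets. A probe set is the array's unit of measurement, several short probes read together for a transcript. The members were chosen by name, with the high DTL value on the PTHLH array already noted, so the comparison below is a description of that value and no test of it. Cells transduced with a PTHLH vector, PTHLH being the parathyroid hormone-like hormone, were compared with cells transduced with an empty vector. Both were stably transduced and had been kept under blasticidin, which selects for cells that carry a vector, and total RNA of 1 culture of each was put on 1 Affymetrix U133 array. With 1 array per condition there is no spread between cultures, and every difference below is given without a p-value. Precision is limited by the number of arrays.

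The deposited values were intensities in arbitrary units on a linear scale, with a median of 19.4 on the PTHLH array and 19.5 on the empty vector array. The titles name Ca9-22 and the vectors, whereas a description field names another line, CX-1, and another gene, RAB3C. Of 8 squamous markers listed, the 5 measured (KRT5, KRT14, SFN, DSG3, CDH1) were all above the array medians, from 447 to 13240 with PTHLH and from 390.1 to 12880 with the empty vector. The 6 colon markers, included because CX-1 is a colon line, reached at most 37.1 with PTHLH and 45.4 with the empty vector, and 3 of them (CDX1, CDX2 and VIL1) were above both medians. Of the markers of other cells, COL1A1, a collagen of fibroblasts, was 1652 with PTHLH and 2437 with the empty vector, while COL3A1, another fibroblast collagen, was below both medians at 6.32 with PTHLH and 5.72 with the empty vector. The fibroblast marker PDGFRB and the 2 leukocyte and 2 endothelial markers measured were at most 39.9 with PTHLH and 40.4 with the empty vector. Of these, PDGFRB and the endothelial marker PECAM1 were above both medians, and the leukocyte marker CD3E was above that of the empty vector array only. The part of such cells in the results below was not tested. PTHLH itself is not analysed here.

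Both ligase families are built on a cullin scaffold. A RING protein, RBX1, brings in the ubiquitin-loaded enzyme, an adaptor joins the other end of the cullin, and an exchangeable receptor picks the protein to be destroyed. In SCF the adaptor is SKP1 and the receptors are F-box proteins such as SKP2 and FBXW7. In CRL4 the scaffold is CUL4A or CUL4B, the adaptor is DDB1 and the receptors are WD40 proteins such as DTL, also called CDT2. These ligases clear replication factors, CDK inhibitors and cyclins at set points of the cycle, and FBXO5, also called EMI1, holds back a further ligase, the APC/C, until mitosis.

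By its brightest probe set every member was higher on the PTHLH array than on the empty vector array, but only DTL was more than 1.5-fold higher. By the same reading, 48.5% of all genes were higher on the PTHLH array. The 10 log2 differences ran from 0.15 for FBXW7 to 1.33 for DTL, with a median of 0.36 (1.29-fold), against a median of 0 over all genes. At 1.5-fold, 1 of 10 member genes was higher and none lower, where 1.97% of all genes were higher and 3.52% lower. At 1.2-fold, a threshold added after these values had been seen, 6 of 10 were higher and none lower, where 15% of all genes were higher and 15.6% lower. Without DTL the median of the other 9 genes was also 0.36. In RNA from a whole culture, more cells in a given phase of the cycle and more RNA per cell cannot be told apart.

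Over all 26 member probe sets the picture was less uniform. The log2 difference was above 0 for 21 and below 0 for 5, with a median of 0.23 against 0 over all 41097 probe sets paired with a single symbol, of which 49.3% were above 0. At 1.5-fold, 1 of the 26 was higher and none lower, against 2% higher and 2.78% lower of all probe sets. At 1.2-fold, 11 were higher and 3 lower, against 15.2% higher and 14% lower. Among the 21 member probe sets above both array medians, 18 were above 0, and their median was 0.24. Of all 21971 probe sets with a single symbol above both medians, 50.7% were above 0, and their median was 0.009.

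**Figure D1:**
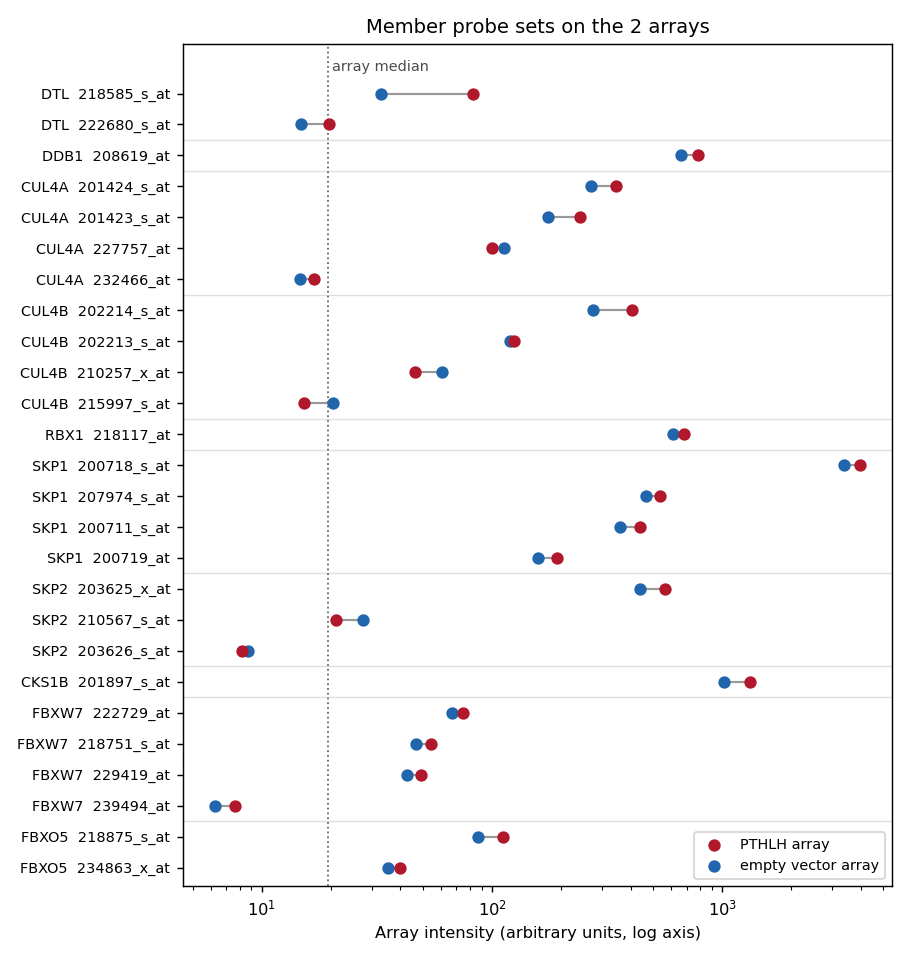
Intensity (arbitrary units, log axis) of the 26 member probe sets, 1 row each, grouped by gene. Red points are the PTHLH array and blue points the empty vector array, 1 array each, joined by a line, and the dotted line is the array median; the widest gap is that of the brighter DTL probe set, 82.5 with PTHLH and 32.9 with the empty vector.

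DTL is the CRL4 receptor that recognises proteins bound to PCNA on replicating or damaged DNA. Its brighter probe set (218585_s_at) had an intensity of 82.5 on the PTHLH array and 32.9 on the empty vector array, a 2.51-fold difference. Its other probe set (222680_s_at) had 19.5 with PTHLH and 14.8 with the empty vector, or 1.32-fold, at the median of the PTHLH array and below that of the empty vector array. Both probe sets were thus higher with PTHLH, and they differed in size by 0.93 on the log2 scale. A gap that large between the 2 brightest probe sets was seen in 1.42% of 10523 genes with at least 2. By its brightest probe set DTL ranked 8 of 19775 genes in log2 difference. The genes closest to it in log2 difference among those above both medians were PHF19 (1.35), PCDH7 (1.26) and SPRR1B (1.24), a likeness over 2 arrays only.

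The promoters are shown for DTL, the member with the largest difference, and for CKS1B, whose window holds another kind of cell cycle element. Both are the 150 bases before the annotated start in RefSeq, build GRCh38.p14, on the plus strand, at chr1:212035598-212035747 for DTL and chr1:154974531-154974680 for CKS1B. Capitals mark TTTGGCGC (an E2F site), TTTGAA (the CHR element) and CCAAT, searched on both strands.
DTL: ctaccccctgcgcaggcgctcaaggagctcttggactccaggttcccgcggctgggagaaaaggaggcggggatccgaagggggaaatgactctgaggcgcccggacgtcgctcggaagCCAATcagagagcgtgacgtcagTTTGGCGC
CKS1B: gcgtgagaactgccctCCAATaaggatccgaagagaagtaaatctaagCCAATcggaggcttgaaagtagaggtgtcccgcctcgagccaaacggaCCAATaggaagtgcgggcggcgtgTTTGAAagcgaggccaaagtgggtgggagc

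In DTL the letters TTTGGCGC began 8 bases before the start and a CCAAT 31 bases before it. No other member had TTTGGCGC in any of its promoters of 300 bases (250 before the start and 50 from it), of which the table holds 20 for the 10 members, and 0.652% of all 35116 promoters had it. The other E2F spelling searched, TTTCGCGC, was in no member's promoter and in 0.515% of all promoters. No further E2F spelling was searched, so a member without these letters may still hold an E2F site. In CKS1B a TTTGAA began 30 bases before the start, and its promoter held 5 CCAAT, a count reached by 0.359% of all promoters. FBXO5 had a TTTGAA, on the opposite strand, 40 bases before 1 of its 2 annotated starts, with 4 CCAAT, of which 2 overlap, in the same promoter. TTTGAA was found in at least 1 promoter of 4 members (CUL4B, CKS1B, FBXW7 and FBXO5) and CCAAT in at least 1 promoter of 5 (these and DTL). Of all promoters taken singly, 15.2% had TTTGAA and 34.6% had CCAAT. The member counts are per gene over 20 promoters, so they cannot be read against these shares of single promoters. CUL4A, CUL4B and FBXW7 each have 4 annotated starts and so more letters to match. These are matches of letters, and binding was not measured.

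DDB1, the adaptor that ties DTL and other receptors to the cullin, had an intensity of 782 on the PTHLH array and 660.0 on the empty vector array, 1.18-fold. RBX1, the RING subunit shared by both families, had 682 with PTHLH and 614 with the empty vector, 1.11-fold. Each has only 1 probe set, so neither value could be set against another probe set of the gene. Both differences lay well under 1.5-fold, at a log2 difference of 0.24 for DDB1 and 0.15 for RBX1.

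The CUL4 scaffolds had probe sets that went in opposite directions. For CUL4A the brightest (201424_s_at) had 346 with PTHLH and 268 with the empty vector (1.29-fold). The next (201423_s_at) had 241.0 with PTHLH and 176 with the empty vector (1.37-fold). A further probe set above both medians (227757_at) was lower, at 99.9 with PTHLH and 113 with the empty vector, a log2 difference of -0.18. The dimmest (232466_at) had 16.9 with PTHLH and 14.6 with the empty vector. For CUL4A, then, 3 of 4 probe sets were higher with PTHLH.

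CUL4B, the X-linked paralog that can take the place of CUL4A in the complex, had the widest range of any member, 0.98 on the log2 scale. Its brightest probe set (202214_s_at) had 405 with PTHLH and 275 with the empty vector, 1.47-fold and just under the threshold. The next (202213_s_at) was nearly level, at 124 with PTHLH and 120.1 with the empty vector. The remaining pair were lower with PTHLH. They had 46.2 with PTHLH and 60.5 with the empty vector (210257_x_at, a log2 difference of -0.39), and 15.2 with PTHLH and 20.3 with the empty vector (215997_s_at, -0.42). The median over the 4 probe sets was -0.17, so the direction of CUL4B depends on the probe set read. What the probe sets of CUL4B bind was not tested.

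**Figure D2:**
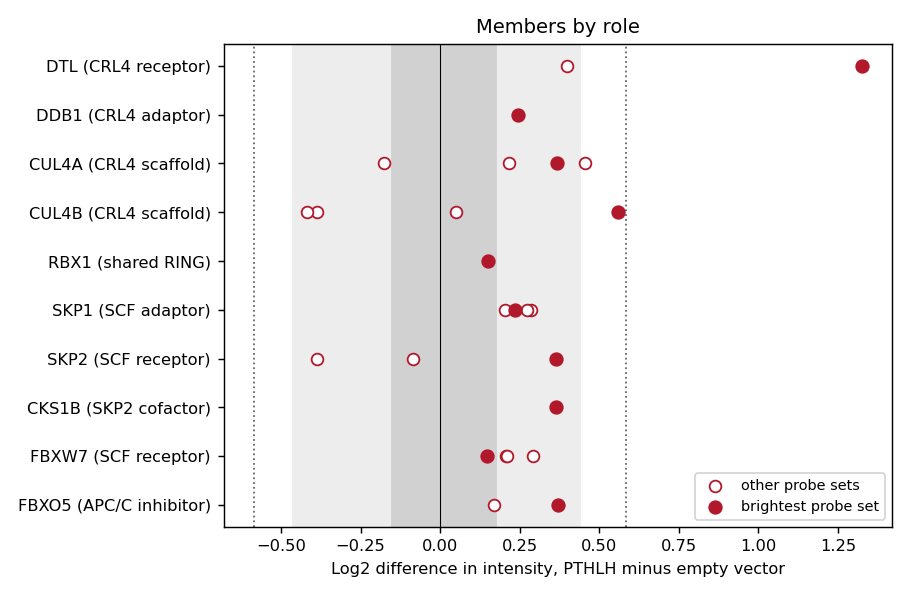
Log2 difference in intensity (PTHLH minus empty vector) for each probe set of the 10 members, with the brightest filled. Dark and light grey bands hold the central 50% and 90% of all probe sets with a single symbol (percentiles 25 to 75 and 5 to 95), and dotted lines mark 1.5-fold; only the brightest DTL probe set (1.33) lies past them, while CUL4A, CUL4B and SKP2 have points on either side of 0.

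SKP1, the adaptor of every SCF complex, had the narrowest range among members with several probe sets, 0.08 on the log2 scale. Its brightest probe set (200718_s_at) had 3978 with PTHLH and 3380 with the empty vector, 1.18-fold. The others had 536 with PTHLH and 465 with the empty vector (207974_s_at), 440.4 with PTHLH and 361 with the empty vector (200711_s_at), and 191 with PTHLH and 158 with the empty vector (200719_at). All 4 were higher with PTHLH, by log2 differences between 0.20 and 0.29.

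SKP2 is the F-box receptor that marks the CDK inhibitor p27 for destruction, and its reading rests on a single probe set. That probe set (203625_x_at) had 565 with PTHLH and 439 with the empty vector, 1.29-fold. It carries the suffix x, which marks probes that can bind transcripts of other genes. The other probe sets were lower, at 21.0 with PTHLH and 27.5 with the empty vector (210567_s_at), and at 8.19 with PTHLH and 8.69 with the empty vector (203626_s_at). The first of these lay just above both array medians and the last below both. CKS1B, the small cofactor that SKP2 needs to bind p27, had 1316 with PTHLH and 1022 with the empty vector on its only probe set, 1.29-fold. The brightest probe set of SKP2 and that of CKS1B thus had nearly the same log2 difference, 0.36 each.

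FBXW7 is the F-box receptor for cyclin E, MYC, JUN and NOTCH1 and is known as a tumor suppressor. Its brightest probe set (222729_at) had 74.5 with PTHLH and 67.3 with the empty vector, 1.11-fold, the smallest difference among the members. The next (218751_s_at) had 54.0 with PTHLH and 46.8 with the empty vector, and 229419_at had 49.4 with PTHLH and 42.7 with the empty vector. A dim probe set (239494_at) had 7.66 with PTHLH and 6.26 with the empty vector. All 4 were slightly higher with PTHLH, between 0.15 and 0.29 on the log2 scale.

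FBXO5 is built like an F-box protein but acts as an inhibitor of the APC/C, which lets cyclins build up in S and G2 phase. Its brighter probe set (218875_s_at) had 112 with PTHLH and 86.6 with the empty vector, 1.29-fold. The other (234863_x_at) had 39.8 with PTHLH and 35.4 with the empty vector, 1.13-fold. Both were higher with PTHLH.

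Ordered by the log2 difference of the brightest probe set, DTL (1.33) was followed by CUL4B (0.56), FBXO5 (0.37), CUL4A (0.37), CKS1B (0.36), SKP2 (0.36), DDB1 (0.24), SKP1 (0.24), RBX1 (0.15) and FBXW7 (0.15). The only internal measure of error is the spread between probe sets of a gene, an SD of 0.20 for a single log2 difference over 5594 genes, which leaves out the spread between cultures. Only the gap between DTL and CUL4B, 0.77, was larger than that SD. That SD is for a single gene, and a difference between genes carries the error of both. The order of the other neighbours is therefore not resolved. The SD comes from genes whose brighter probe sets both lay above both array medians, which was not so for DTL. Within DTL and within CUL4B the probe sets differed by more than that gap, 0.93 and 0.98, so its size depends on the probe sets read. Of the 7 members with several probe sets, 4 (DTL, SKP1, FBXW7 and FBXO5) had all of them above 0 and 3 (CUL4A, CUL4B and SKP2) did not. By the brightest probe set the CRL4 genes other than DTL had a median of 0.31 and the SCF genes, RBX1 included in both, had 0.24.

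Other parts of the same machinery were measured through lists set by function, and most were nearer to 0. Each gene of a list was counted by its brightest probe set, by which 48.5% of all genes were above 0. Where other probe sets past 1.5-fold are named, they were named after their values had been seen. Among 7 further SCF partners none passed 1.5-fold and the median was 0.05. The highest were CUL1, the SCF scaffold, with 68.0 with PTHLH and 46.6 with the empty vector (1.46-fold, though its dim other probe set was identical on both arrays at 13.1), and CCNF, an F-box protein of the cyclin family, with 295 with PTHLH and 219 with the empty vector (1.35-fold). CKS2, the paralog of CKS1B, was 1.17-fold higher.

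Among 57 other F-box receptors measured of 63 listed, none was at least 1.5-fold higher and 4 were lower (3.52% of all genes were lower), with a median of -0.08 and 24 above 0. The lower ones were FBXO43 (log2 difference -0.76), FBXO24 (-0.69), FBXO15 (-0.68) and, named after its value had been seen, FBXO2 (-0.67). The FBXO2 probe set carries the suffix x, and the other probe set of FBXO2, a dim one, was higher (0.28). FBXO43, also called EMI2, is the meiotic paralog of FBXO5. It was dim, at 18.6 with PTHLH and 31.5 with the empty vector, on either side of the array median, and it went the other way from FBXO5. None of these 4 was a bright gene, as the highest of their values was 48.7, for FBXO15 with the empty vector. Dimmer probe sets of FBXL14 and FBXL5 were also lower past 1.5-fold. Those of FBXL14 had 22.2 with PTHLH and 43.9 with the empty vector (log2 difference -0.98), and 10.6 with PTHLH and 23.6 with the empty vector (-1.15), although its brightest was higher (0.41). That of FBXL5 had 50.4 with PTHLH and 83.9 with the empty vector (-0.73).

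Among 22 other CRL4 receptors and partners none passed 1.5-fold, with 15 above 0 and a median of 0.10. The largest differences were those of DCAF1 (0.40), WDTC1 (-0.35) and COP1 (0.32), all given as log2 differences. By the brightest probe set, then, no other CRL4 receptor listed came near the 1.33 of DTL. Of the dimmer probe sets, 1 of DCAF8 was nearest to it, 2-fold higher at 19.4 with PTHLH and 9.71 with the empty vector. Dimmer probe sets of AMBRA1 (0.78) and DCAF16 (0.69) were also higher past 1.5-fold, and 1 of DCAF10 was lower (-0.69). The 7 genes for other cullins and the RING protein RNF7 had a median of 0.07 and none past 1.5-fold. After CUL1, the largest were CUL3 (0.18) and CUL2 (0.18).

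Cullins are switched on by NEDD8, a ubiquitin-like protein, and switched off by the COP9 signalosome, which removes it. Of 12 genes of neddylation and cullin exchange measured of 13 listed, none passed 1.5-fold and the median was 0.06. The largest were DCUN1D5 (0.42) and NAE1, part of the NEDD8-activating enzyme (0.42), on the higher side and DCUN1D2 (-0.40) on the lower. Of 10 signalosome genes none passed 1.5-fold by the brightest probe set and the median was 0.17. COPS5, the subunit that cuts NEDD8 off, had 313 with PTHLH and 236 with the empty vector, 1.33-fold, and COPS7A (0.36) and COPS3 (0.33) were next in log2 difference. COPS6 had 0.21 on its brightest probe set, but another, above both medians, had 396 with PTHLH and 255 with the empty vector (0.64). Of 17 APC/C subunits, coactivators and partner enzymes measured of 18 listed, none passed 1.5-fold and the median was 0.21. The largest were ANAPC15 (0.47), CDC16 (0.47) and the mitotic coactivator CDC20 (0.44).

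The transcripts of proteins that these ligases destroy went in both directions. These are RNA values, and the amounts of protein were not measured. Over all genes, 1.97% were at least 1.5-fold higher and 3.52% lower. Of the 8 genes listed for CRL4-DTL with PCNA, none was at least 1.5-fold higher and 1 was lower, with a median of 0.07. The lower one was CDKN1A, the CDK inhibitor p21, with 1339 with PTHLH and 2065 with the empty vector, a log2 difference of -0.62. POLD4, a small subunit of DNA polymerase delta, had -0.44, and SDE2 and the histone methyltransferase KMT5A had -0.13 and -0.05. The other probe set of SDE2, a dim one, had 0.30, and those of KMT5A ran from 0.07 to 0.31. PCNA, the clamp on which DTL finds its targets, had 567 with PTHLH and 435 with the empty vector, 1.30-fold. TDG had 0.26 and ERCC5 0.18, both repair enzymes. CDT1, a factor that licenses origins of replication, had 355 with PTHLH and 302 with the empty vector on its brightest probe set, which carries the suffix x, but 71.4 with PTHLH and 111 with the empty vector on its other probe set, a log2 difference of -0.64.

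Of the 7 SCF-SKP2 targets, 1 was at least 1.5-fold higher and 1 lower (1.97% and 3.52% of all genes), with a median of 0. CDKN1B, the p27 that SKP2 is best known for, was nearly level at 733 with PTHLH and 712 with the empty vector. The higher one was ORC1, a subunit of the origin recognition complex, which was below both array medians at 16.9 with PTHLH and 10.4 with the empty vector. The lower one was CDKN1A again. FOXO1 had a log2 difference of -0.36, or -0.59 on another probe set, and RBL2, the pocket protein p130, of -0.14, while CDKN1C was dim and identical on both arrays at 11.8.

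Of the 10 SCF-FBXW7 targets, 2 were at least 1.5-fold higher and 1 lower (1.97% and 3.52% of all genes), with a median of 0.16. The AP-1 subunit JUN had 252 with PTHLH and 649.8 with the empty vector. Its log2 difference of -1.37 was the largest in any of these lists. All 4 of its probe sets were lower, from -1.56 to -0.42. CCNE2, 1 of the cyclins E, had 29.3 with PTHLH and 16.1 with the empty vector, the latter below the median of its array. A dimmer probe set of CCNE2 had a log2 difference of 0.19. The paralog CCNE1 had 88.0 with PTHLH and 69.3 with the empty vector. The mitotic kinase AURKA lay at the threshold itself, with 865 with PTHLH and 577 with the empty vector, 1.5-fold, and its probe sets ran from 0.05 to 0.75 in log2 difference. MTOR (0.26), NOTCH1 (0.18), MYC (0.14), MCL1 (0.12), KLF5 (0.08) and SREBF1 (-0.12) had log2 differences within 1.2-fold.

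**Figure D3:**
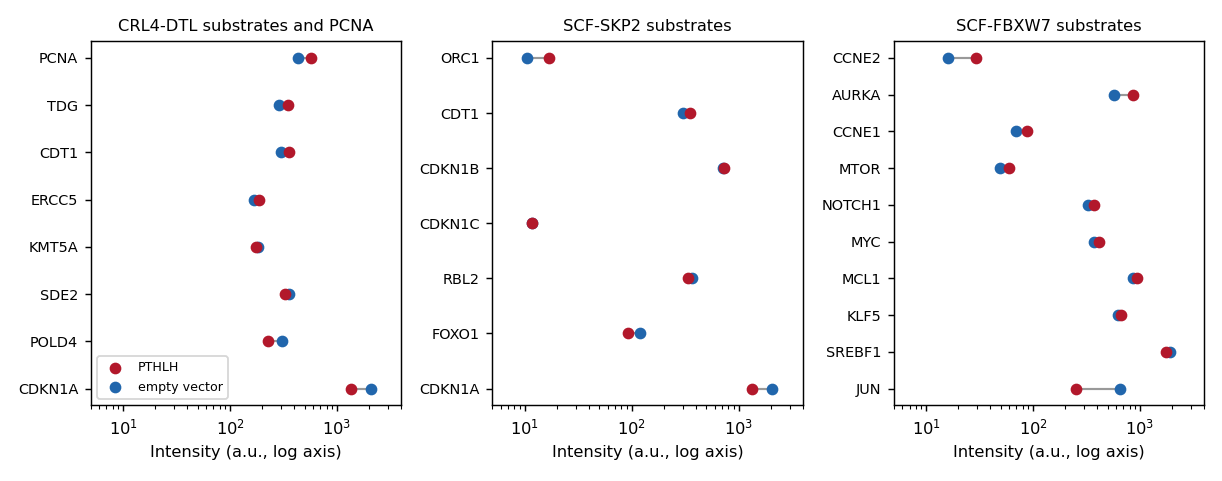
Intensity (arbitrary units, log axis) of the brightest probe set for the listed targets of CRL4-DTL with PCNA, of SCF-SKP2 and of SCF-FBXW7, each ordered by log2 difference. Red points are the PTHLH array and blue points the empty vector array; CDKN1A (1339 with PTHLH, 2065 with the empty vector) and JUN (252 with PTHLH, 649.8 with the empty vector) are farthest below their empty vector values.

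The targets of the APC/C, the ligase that FBXO5 inhibits, were the only list of the 11 in which all genes had log2 differences above 0. Of 12, 4 were at least 1.5-fold higher and none lower, with a median of 0.46. Of all genes, 1.97% were higher and 3.52% lower at 1.5-fold, and 48.5% were above 0. The list includes the members SKP2 and CKS1B, and several of its genes were known to be higher on the PTHLH array when it was drawn up, so it is not independent evidence of a direction. RRM2, a subunit of ribonucleotide reductase, had 812 with PTHLH and 436 with the empty vector, 1.86-fold. The cyclins CCNA2 and CCNB1 were 1.63-fold and 1.57-fold higher, and AURKA was the remaining gene at the threshold. The other probe sets of RRM2, CCNA2 and CCNB1 had log2 differences of 0.72, 0.91 and 0.59. PLK1 (0.56), TK1 (0.47), CDC20 (0.44), AURKB (0.31), PTTG1 (0.23) and GMNN (0.15) had smaller log2 differences. With 1 culture each, the vector and the culture cannot be told apart.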

How the data were processed

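The deposited values were intensities, 1 per probe set on each of 2 Affymetrix U133 arrays. Any background correction, normalization and probe summary were done by the authors before deposit by steps not given in the sources used here. Probe sets took their gene names from GEO's platform annotation, brought up to date by Entrez identifier. Of 54675, 41097 had 1 symbol, 1801 several and 11777 are unnamed here. Without further scaling, each difference was log2 of the PTHLH value minus log2 of the empty vector value. A gene was read by the probe set of highest mean log2 intensity, and changes of at least 1.5-fold, the study's threshold, were counted. Members and lists were chosen with earlier results of these data known. All members are named. Of each list, the 3 genes with the largest absolute difference among those above the median on at least 1 array are named, as are every gene of a substrate list and the 3 genes closest to DTL in log2 difference among those above both medians. Probe sets with several symbols or none were left out, and a gene left without a probe set was counted as not measured. Promoters came from a RefSeq table of GRCh38.p14. The counting code was tested on simulated data with planted 2-fold changes and little noise, which is no test of the calls made here. Alternatives were quantile normalization, centring, no dim probe sets, a floor at percentile 40, no probe sets with suffix x or s, a 2-fold threshold, and the median or largest change over probe sets. A 1.2-fold threshold and leaving out DTL were added after seeing the data. Python 3.11.15, pandas 2.3.3, numpy 2.4.6 and matplotlib 3.10.9 were used.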

Additional observations from a re-analysis of the deposited data

How the results depend on the processing

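The counts of 1 member higher and 0 lower at 1.5-fold held under quantile normalization, removal of dim probe sets, a floor (percentile 40) and a 2-fold threshold, and for genes also with the median or the largest change over probe sets. Centring on the brighter probe sets shifted the values by 0, so it tested nothing. Without probe sets of suffix x or s, which leaves 8 probe sets of 5 genes and no DTL, 0 probe sets and 0 genes were higher. Leaving out DTL, an alternative chosen after seeing the data, also gave 0 and 0. At 1.2-fold, likewise chosen after seeing the data, 11 probe sets and 6 genes were higher and 3 probe sets lower. The median over member probe sets was 0.23 and ran from 0.21 to 0.24 under the alternatives. Centring, removal of dim probe sets, the floor and leaving out DTL changed no value of a single member, so they say nothing about how firm these values are. Of 74 values for single members under the alternatives, these unchanged ones included, 5 moved by more than the probe set SD of 0.20. These were DTL (0.86), CUL4B (-0.17) and SKP2 (-0.09) with the median over probe sets, SKP2 (-0.39) with the largest change, and CUL4A (-0.18) without suffix x or s. The array medians limit what the dim probe sets of DTL, CUL4A, CUL4B, SKP2 and FBXW7 can show, and 1 array per condition limits all values.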
